A study of Mus musculus with 4 samples.

Results

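Major urinary proteins (MUPs) were examined through the array probes whose name, either as printed on the array or as the current symbol of the probe's RefSeq accession, is a gene of the Mup family. The rule found 7 of the 41174 gene probes, and these stood for 4 genes: Mup1 with 3 probes, Mup3 with 2, and Mup4 and Mup5 with 1 each. No probe was named Mup2. The probes were chosen by name, but the family itself was selected on the diet ratios of its probes in these arrays, so the values below are a description and carry no test.

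MUPs are small secreted proteins of the lipocalin fold, a barrel that holds a greasy molecule in its centre. In mice they are made mainly by hepatocytes, pass through the blood into the urine, and carry volatile pheromones that are released slowly from scent marks. Their genes sit side by side on chromosome 4 in many near-identical copies. In liver their transcription is known to depend on pulses of growth hormone acting through STAT5, on glucocorticoids and on liver transcription factors, and it is higher in males than in females. Other copies are expressed in lacrimal, salivary and nasal glands.

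All mice were male C57BL/6J and 7 weeks old, and all received lipopolysaccharide (LPS), an endotoxin of the outer membrane of Gram-negative bacteria that provokes inflammation throughout the body. The dose was 10 mg/kg, and liver and spleen were taken 6 h later. The control group had eaten a purified diet with 0.03% nucleic acids, and the nucleoprotein group had eaten for 4 weeks that diet plus a nucleoprotein supplement at 1.2%, with 0.5% nucleic acids in all. A housing note names a standard chow, and the purified diet is taken from the study design. RNA of each organ was pooled by diet, and how many mice made up a pool is not stated in the labels. Mice that received no LPS were not analysed here.

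Each organ had 2 arrays, and each array carried both diets of that organ. The nucleoprotein pool was labelled with Cy5 (red) on the replicate 1 array and with Cy3 (green) on the replicate 2 array. The labels do not say whether the replicates were the same pools labelled again. They were taken as a dye swap of 1 pool per diet, so there is no replicate check between mice, and the SD beside a ratio is the spread of the 2 arrays alone. Of the gene spots, 55.2% to 66.8% were well above background in green and 66.5% to 72.8% in red, and 0 were saturated. A probe was called higher or lower when both arrays put its ratio past 1.5-fold, or 0.58 log2 units, in 1 direction. It was counted as measurable when the signal of at least 1 diet, the same diet each time, was well above background on the 2 arrays of the organ.

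The probes are 60 bases long, and their sequences were compared with each other only. A run shared or not shared by 2 probes does not show which Mup copies each one binds. Binding to the copies was not computed. Of the 21 pairs among the 7 probes, only 1 shared 15 or more bases in a row, and the next longest run in any pair was 7 bases. That pair consists of 2 Mup1 probes, A_51_P180314 and A_52_P348256, with a common run of 20 bases. The brightest Mup1 probe, A_51_P461703, shared a run of 31 bases with an array probe that carries no gene name, NAP112201-1. These sequences are shown 5′ to 3′ as deposited, with the shared run in capitals, followed by the Mup5 probe, which shared no such run.
Mup1 A_51_P461703: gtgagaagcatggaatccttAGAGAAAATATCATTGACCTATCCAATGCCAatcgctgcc
NAP112201-1 A_52_P139316: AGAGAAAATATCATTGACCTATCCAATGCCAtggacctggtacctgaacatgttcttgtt
Mup1 A_51_P180314: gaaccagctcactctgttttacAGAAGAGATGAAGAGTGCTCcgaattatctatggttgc
Mup1 A_52_P348256: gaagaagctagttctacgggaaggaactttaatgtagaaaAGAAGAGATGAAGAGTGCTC
Mup5 A_52_P412506: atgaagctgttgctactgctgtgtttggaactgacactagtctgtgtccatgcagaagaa

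The array's own annotation for A_51_P461703 lists the RefSeq transcripts of Mup1, Mup2 and Mup5 together, so its value cannot be assigned to 1 of these genes and is the place where Mup2 may be read. The RefSeq gene table of assembly GRCm38.p6 holds 22 protein-coding genes and 24 pseudogenes with a Mup symbol. The name rule covered every numbered Mup symbol and found probes for 4 genes. A value printed under a gene's name is therefore that of the probe, which copies beyond the named one may also bind.

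By the deposited coordinates (mouse build mm7), 6 of the 7 probes lie on the minus strand of chromosome 4. The Mup4 probe is at chr4:59998341-59998400, A_51_P180314 at chr4:60502405-60502464 and the Mup5 probe at chr4:61268759-61268818, each an unbroken stretch of 60 bases. A_51_P461703 spans 224 bases, from 60420781 to 60421004, and A_52_P348256 spans 1300 bases, from 60951764 to 60953063. A probe of 60 bases that spans more than its own length on the genome joins stretches that lie apart there. The Mup3 probe A_52_P232508 is given 49 bases at chr4:61517162-61517210 and holds the polyadenylation signal AATAAA, and the second Mup3 probe, A_52_P232507, has no position in the files. Exon and intron annotation of that build was not used here.

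In addition to the 7, 5 probes were followed that the rule leaves out. Of these, 3 are described on the array as major urinary proteins, and NAP112201-1 and NAP102507-1 have positions between those of the first and last named probes. NAP102507-1 is given a span of 125621 bases. LOC620807, described as similar to MUP 4, shared 19 and 15 bases with the Mup1 probes A_51_P180314 and A_52_P348256.

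In liver the Mup probes were among the bright spots of the array and neither diet's pool stood above the other on both arrays. Of the 7 probes, 0 were called higher and 0 lower, against 0.00843% of all 23725 measurable liver probes called higher and 0.244% called lower. The median log2 ratio over the 7 was -0.15, against 0.01 over all measurable probes. For every one of the 7 the ratio was above 0 on one array and below 0 on the other, which was also the case for 66.1% of all measurable liver probes.

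The largest spread belonged to Mup1 A_51_P461703, with a level of 15.65 on replicate 1 and 15.42 on replicate 2 in the nucleoprotein pool and 15.35 and 16.03 in the control pool (log2 intensity of 1 channel). Its ratios were 0.30 and -0.61, a mean of -0.16 ± 0.64 (SD of 2 arrays). The pools' levels overlapped, and the array SD was about as wide as the 1.5-fold bound. Mup4, whose product is known from nasal and lacrimal glands as well as liver, gave ratios of 0.20 and -0.50. Mup5 gave 0.19 and -0.54.

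The other liver ratios lay nearer to 0. They were 0.07 and -0.44 for Mup1 A_51_P180314, and 0.07 and -0.25 for Mup1 A_52_P348256. The Mup3 probe A_52_P232508 ran the other way, at -0.17 and 0.09, and A_52_P232507 gave 0.06 and -0.06. The median array SD of the 7 probes in liver was 0.36, against 0.12 for all measurable probes. The mean of a dye-swapped pair balances a dye effect of a probe, and the SD holds it.

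The loess step mattered for these bright spots. With each array only centred on its median, the liver ratios of A_51_P461703 were 2.61 on replicate 1 and -2.06 on replicate 2, so that Cy5 was the brighter channel on both arrays. All 7 liver means were then above 0, with a median of 0.29, and 0 probes were called.

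In spleen the same probes were far dimmer, and 5 of the 7 were called higher in the nucleoprotein pool and 0 lower, beside 0.171% of 26898 measurable spleen probes called higher and 0.201% called lower. Since the family was picked with these ratios known, the count is given as a description. In these pools of whole organ RNA, fewer cells of a type and less RNA per cell cannot be told apart. The called probes were both Mup1 probes A_51_P461703 and A_51_P180314, Mup3 A_52_P232508, Mup4 and Mup5. The median over the 7 was 1.28, against 0.00 over all measurable spleen probes. The 7 include Mup3 A_52_P232507, which was not measurable in spleen.

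Mup1 A_51_P461703 had the widest difference. Its spleen level was 10.47 and 10.27 in the nucleoprotein pool and 8.26 and 8.08 in the control pool (log2 intensity, replicates 1 and 2). Both nucleoprotein values lay above both control values, and the ratios of 2.21 and 2.20 gave a mean of 2.20 ± 0.01, or 4.60-fold. Mup3 A_52_P232508 had nucleoprotein levels of 9.22 and 9.16 and control levels of 7.62 and 7.37. Again the pools did not overlap, and the ratios were 1.60 and 1.79, a mean of 1.70 ± 0.13, or 3.24-fold.

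Mup4 was at 10.42 and 10.04 in the nucleoprotein pool and at 8.71 and 8.45 in the control pool. Its ratios were 1.71 and 1.60, a mean of 1.65 ± 0.08, or 3.15-fold. These 3 probes were well above background on both arrays in both pools and were the brightest of the family in spleen. Among the probes detected in spleen, their folds moved least with the processing, as given below.

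Mup5 was well above background too but dim, at 7.19 and 7.05 in the nucleoprotein pool against 6.40 and 6.22 in the control pool. Its mean ratio was 0.81 ± 0.02, or 1.75-fold. Mup1 A_51_P180314 was at 7.65 and 7.45 against 6.39 and 6.14, with ratios of 1.26 and 1.30 and a mean of 1.28 ± 0.03, or 2.43-fold. In the control pool it was well above background on only 1 of the 2 arrays, so its fold rests on a value near the floor of the method.

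The remaining pair was not called. Mup1 A_52_P348256 had levels of 6.73 and 7.17 against 6.23 and 6.23, and ratios of 0.50 and 0.94, a mean of 0.72 ± 0.31. Its pools did not overlap, yet replicate 1 fell short of the bound, and its control spot was well above background on 1 of 2 arrays. Mup3 A_52_P232507 was not well above background in either spleen pool on any array, so no fold is given for it.

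**Figure D1:**
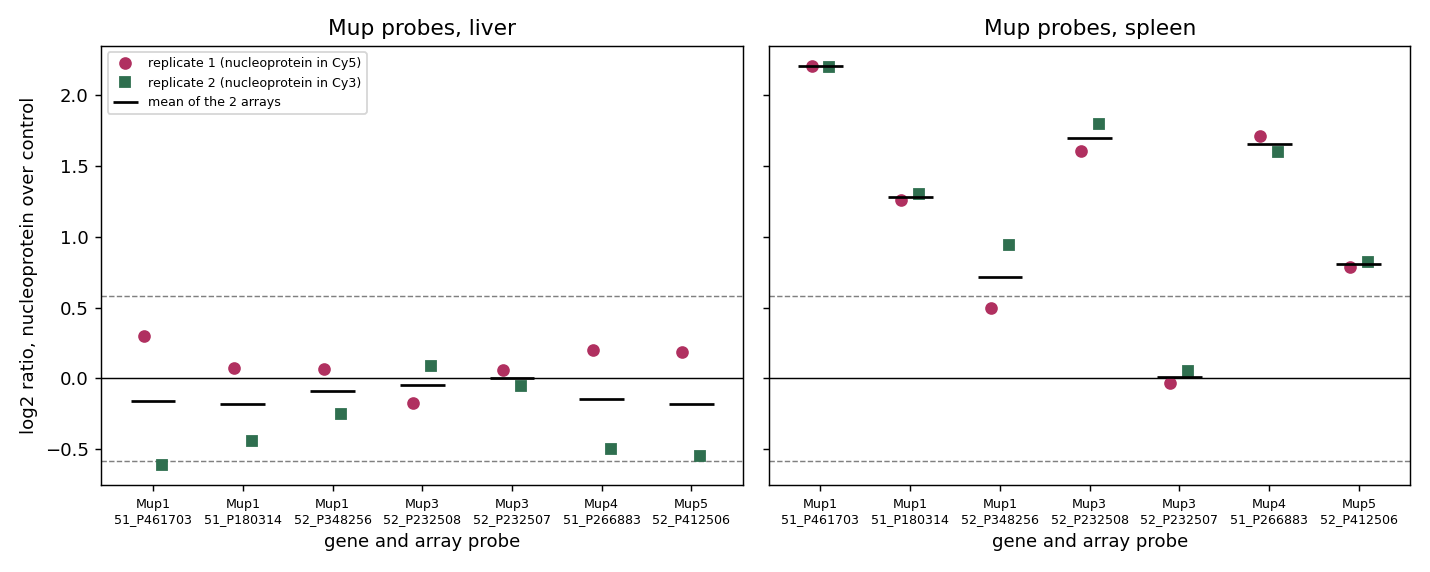
Log2 ratio of the nucleoprotein over the control pool for each of the 7 Mup probes in liver (left) and spleen (right), with circles for replicate 1, squares for replicate 2, black bars for the mean of the 2 arrays and dashed lines at 1.5-fold. In liver the 2 arrays fall on either side of 0 for every probe, and in spleen 5 probes lie above the upper bound on both arrays, from 0.81 for Mup5 to 2.20 for Mup1 A_51_P461703.

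The 3 Mup1 probes thus gave spleen means of 0.72, 1.28 and 2.20, and the 2 Mup3 probes a called value and a value below background. The sequences above show that A_51_P180314 and A_52_P348256 carry the same 20 bases and otherwise differ, and A_51_P461703 shares neither run with them. Probes outside the rule spread in the same way. NAP112201-1, with its 31 bases in common with A_51_P461703, measured 1.28 ± 0.06 in spleen, and NAP102507-1 measured 1.14 ± 0.15, with its control spot above background on 1 of 2 arrays. Of the 3 probes described as major urinary proteins, TC1533197 gave 0.46 ± 0.02 and LOC620807 gave 0.36 ± 0.00, the latter with its control spot above background on 1 of 2 arrays. In Feature Extraction's log ratios these means were 1.23 and 2.06. The third was below background in both spleen pools and has no fold. In liver the means of the 5 lay between -0.21 and 0.02.

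Part of the spread among probes followed how dim they were and how background was treated. An offset of 50 is added to every corrected intensity, and it pulls the ratio of a dim spot towards 0. With an offset of 10, the spleen means of the dim probes rose to 2.01 for A_51_P180314, 1.28 for A_52_P348256 and 1.37 for Mup5. The bright probes moved less, to 2.35 for A_51_P461703, 1.92 for Mup3 A_52_P232508 and 1.75 for Mup4. In the log ratios that Feature Extraction deposited, the dim probes reached 3.16, 2.57 and 2.06 and the bright ones 2.45, 2.07 and 1.83. The order of the copies by diet ratio was therefore not fixed by these arrays, and the direction was the same in all 3 for the 6 probes detected in spleen.

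**Figure D2:**
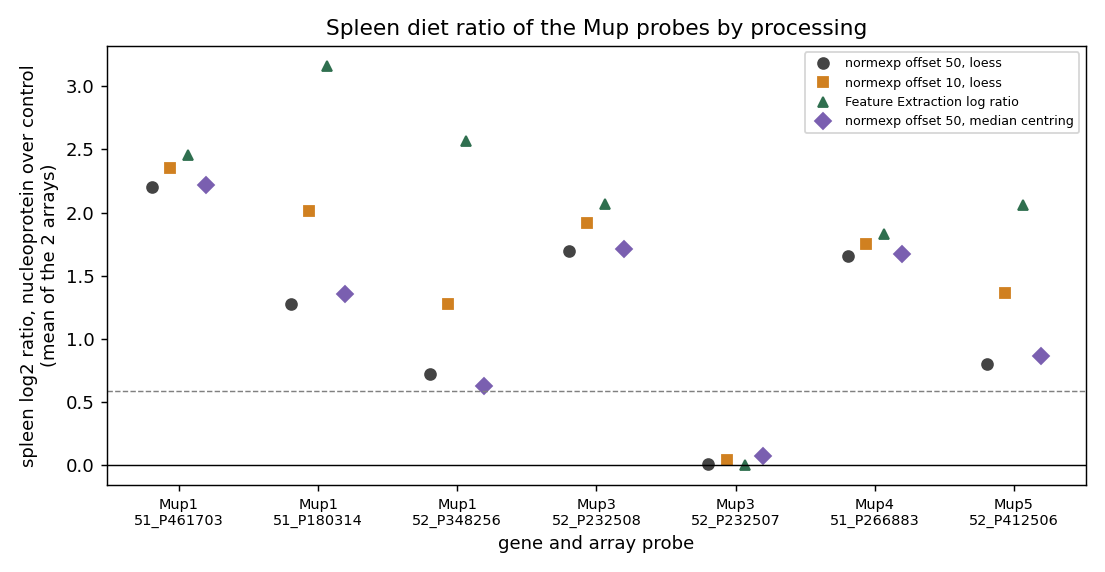
Mean spleen log2 ratio of nucleoprotein over control for each Mup probe under 4 ways of processing the spots, with the dashed line at 1.5-fold. The 3 brighter probes, Mup1 A_51_P461703, Mup3 A_52_P232508 and Mup4, move little, A_51_P461703 from 2.20 to 2.45, whereas Mup1 A_51_P180314 runs from 1.28 to 3.16 and Mup1 A_52_P348256 from 0.63 to 2.57.

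The levels in the 2 organs differed far more than the diets did. Over the 7 probes, with the undetected Mup3 A_52_P232507 among them, the liver level exceeded the spleen level by a median of 6.34 log2 units. The 6 probes detected in spleen ran from 5.95 for Mup4 to 8.37 for Mup5. For comparison, 3.71% of 28424 probes measurable in either organ were at least 8-fold brighter in liver. Put as a share within each probe, the spleen signal of A_51_P461703 was 2.79% of the liver signal in the nucleoprotein pools and 0.54% in the control pools. For Mup4 the shares were 3.01% and 0.86%, for Mup3 A_52_P232508 1.20% and 0.36%, and for Mup5 0.42% and 0.21%.

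These shares also depend on the background step, most of all for the dimmest. From Feature Extraction's processed intensities they were 2.37% and 0.40% for A_51_P461703, and 0.17% and 0.038% for Mup5. In each case the spleen held a small share of the liver signal, and the share was higher in the nucleoprotein pool.

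**Figure D3:**
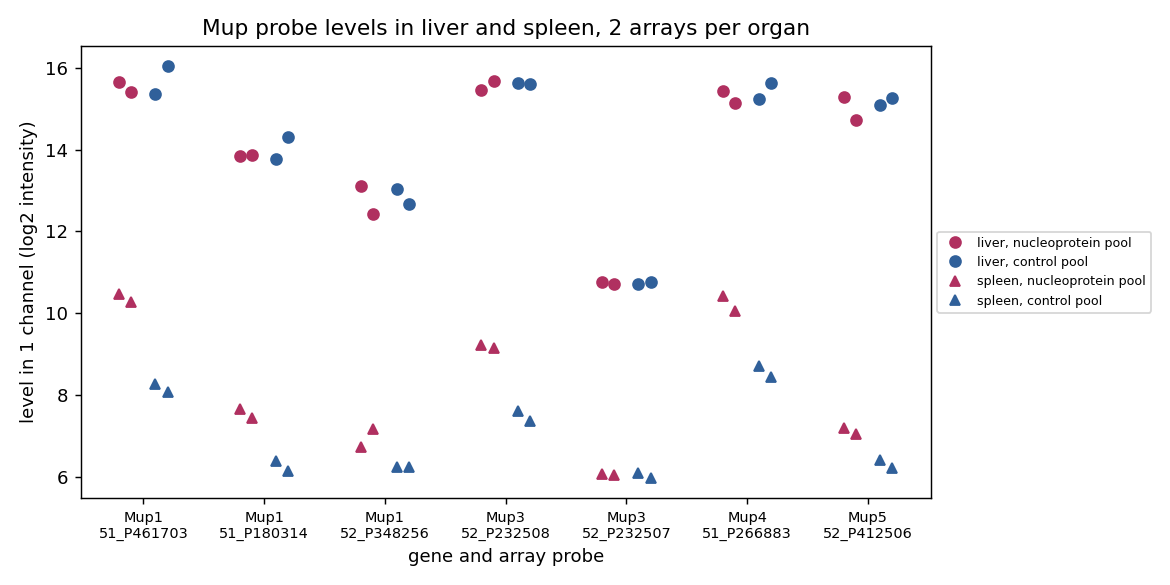
Level of each Mup probe as log2 intensity of 1 channel, with circles for liver, triangles for spleen, red for the nucleoprotein pool and blue for the control pool, and 1 point per array. Liver points lie between 10.70 and 16.03 and overlap between diets for every probe, and spleen points lie below 10.5, with the nucleoprotein points above the control points in all but the undetected Mup3 A_52_P232507.

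The genes whose levels ran most like the brightest Mup1 probe were plasma protein and liver genes. Likeness was the root mean square difference of the 8 channel levels (4 pools, 2 arrays each), centred on each gene's mean, over 27669 genes, and the levels it uses hold both the gap between organs and the diet difference in spleen. The nearest was Alb, serum albumin, at 0.23, followed by the fibrinogen chain Fgg at 0.27, Mup4 at 0.29, the fibrinogen chain Fgb at 0.33 and Ahsg, the plasma glycoprotein fetuin-A, at 0.43. Fabp1, the liver fatty acid binding protein, stood at 0.43 and Mup3, by its probe A_52_P232508, at 0.53. Serpina3m stood at 0.58, Apoc1 at 0.59 and Ambp, a lipocalin secreted by hepatocytes, at 0.65. Their spleen ratios ranged from 0.62 ± 0.26 for Apoc1 to 2.21 ± 0.40 for Fgg, with Alb at 1.94 ± 0.24. As those spleen levels entered the choice of these genes, their ratios are a description and no support for the Mup values. Mup5, at 1.14, was farther from the Mup1 probe than any of these. So was the second Mup3 probe, A_52_P232507, at 1.15, which was not well above background in spleen.

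Markers of hepatocytes moved with the Mup probes in spleen. Of 29 measurable members of a hepatocyte list with 30 on the array, 16 were called higher and 0 lower, beside 0.215% of 18149 measurable spleen genes called higher. The median of the list was 0.67 and 28 of the 29 lay above 0. In the nucleoprotein spleen pool all 29 were well above background on both arrays, and in the control pool 20 were. The level of the list, summed as its mean log2 intensity, was 7.78 and 7.69 in the nucleoprotein pool and 6.99 and 6.86 in the control pool. Among the called, Fgg, Igfbp1, Alb, Fgb, Ahsg and Serpina3k gave the largest ratios, from 1.33 to 2.21. The 5 called Mup probes ran from 0.81 to 2.20. The thyroid hormone carrier Ttr was not above background in either spleen pool. The part of hepatocyte RNA in the Mup difference was not tested.

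Not all liver genes did so. Trf, encoding transferrin, stood at 0.09 ± 0.10 and the urea cycle gene Ass1 at -0.21 ± 0.19. These were the brightest members of the list in spleen when the levels of both pools are averaged. Their gaps between liver and spleen, 5.84 and 4.33 log2 units, were smaller than for any Mup probe detected in spleen. The spleen signal of Trf was 1.78% of the liver signal in the nucleoprotein pools and 1.72% in the control pools. For Ass1 the shares were 4.91% and 5.01%. How much of these spleen signals came from hepatocyte RNA was not tested. Tdo2 at 0.06 ± 0.01 and Cyp3a11 at 0.03 ± 0.10, picked after their values were seen, also stayed near 0, and both were dim in spleen. Among all probes at least 8-fold brighter in liver and measurable in spleen, 4.64% of 798 were called higher and 0 lower. Over all 26898 measurable spleen probes the shares were 0.171% higher and 0.201% lower. The 798 include probes that were measurable through the nucleoprotein pool alone. They also include the called Mup probes and the called hepatocyte genes, so this share is not independent of them.

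Acinar genes of the pancreas, for enzymes such as trypsin, lipase and amylase, ran the opposite way in spleen. Of 23 measurable, 18 were called lower and 0 higher, beside 0.226% of all measurable spleen genes called lower, with a median of -1.07, and Amy2, pancreatic amylase, was at -1.34 ± 0.19. The mean level of the list was 8.77 and 8.72 in the nucleoprotein pool and 9.74 and 9.78 in the control pool. In liver all 23 were called lower, beside 0.317% of 16405 measurable liver genes, with a median of -3.86, while the Mup probes of the same arrays gave a median of -0.15. The part of pancreatic RNA in the Mup difference was not tested.

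Since some Mup copies are expressed in glands, salivary and lacrimal markers were also read. In spleen 1 of 10 measurable was called lower, the salivary amylase Amy1 at -1.46 ± 0.17, and 0 were called higher, beside 0.226% of all measurable spleen genes called lower and 0.215% higher. In liver 4 of 7 were called lower, Amy1, Klk1, Klk1b3 and Klk1b5, beside 0.317% of all measurable liver genes. Amy1 belongs to a family near-identical to the pancreatic amylases, and Klk1 and its Klk1b relatives are tissue kallikreins with many close copies, so these lists cannot fully separate the glands. B cell, T cell and erythroid lists, with 3 to 8 measurable members each, had 0 called in either organ. At the shares called over all genes, lists of that size would be near 0 in any case.

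Genes that control Mup transcription in liver were read as a list. The list of growth hormone signalling and Mup regulators had 30 measurable members of 32 in liver, with 0 called and a median of 0.06. Over all measurable liver genes 0.0122% were called higher and 0.317% lower, so a count of 0 is near the background and is not a result about these genes. The growth hormone receptor Ghr stood at 0.10 ± 0.25, its signal carriers Stat5a at 0.12 ± 0.05 and Stat5b at 0.15 ± 0.11, and the feedback inhibitor Socs3 at 0.11 ± 0.26 in liver. The nuclear receptor Hnf4a, which keeps up hepatocyte genes, was at -0.02 ± 0.23. In spleen 24 were measurable and 0 were called, again near the background of 0.215% higher and 0.226% lower, with a median of 0.02, and Hnf4a was not above background in either pool. Ghr was at -0.02 ± 0.21 there.

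Other genes of sex-dependent liver expression were read beside the Mup genes, which are themselves higher in males. Of the male-biased list, 0 of 19 measurable members were called in liver and 0 of 12 in spleen, where the median was 0.07. The female-biased list had 0 of 11 and 0 of 6 called. With 0.0122% of genes called higher and 0.317% lower in liver, and 0.215% and 0.226% in spleen, these counts are near the background and say nothing particular about either list. The spleen ratios of the measurable male-biased genes ran from -0.10 for Selenbp2 to 0.40 for Serpina1e. Those of the 6 Mup probes detected in spleen, called or not, ran from 0.72 to 2.20. Several of the male-biased genes were near the floor in spleen, where the offset pulls ratios towards 0.

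Among the other lipocalins, the family to which MUPs belong, 2 of 13 measurable were called higher in spleen, beside 0.215% of all genes, and 0 of 13 were called in liver, beside 0.0122% of genes called higher and 0.317% lower. These were Rbp4, the retinol carrier of plasma, at 1.12 ± 0.14, and Ambp at 1.16 ± 0.03, both of which are also in the hepatocyte list. Lcn2, a lipocalin of neutrophils and of the acute phase that binds bacterial siderophores, was at 0.06 ± 0.25 in spleen and at -0.07 ± 1.20 in liver, with ratios of 0.78 and -0.91 on the 2 liver arrays. Of the 13, 12 lay above 0 in spleen, and the median was 0.07.

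**Figure D4:**
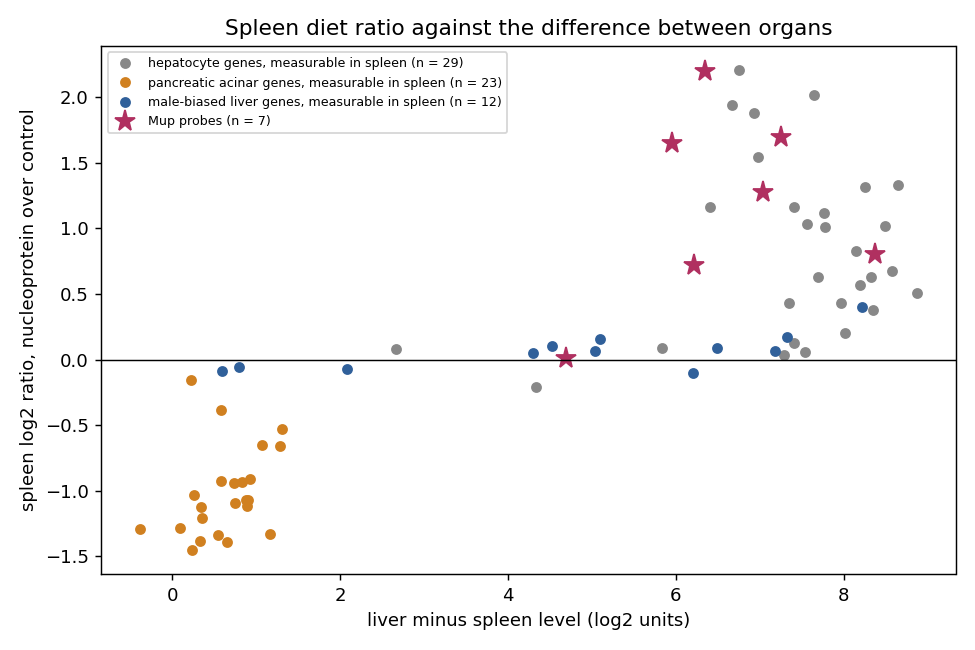
Spleen log2 ratio of nucleoprotein over control against the gap in level between liver and spleen, for the 7 Mup probes (stars) and the measurable genes of the hepatocyte, pancreatic acinar and male-biased liver lists (circles). Mup probes lie among the hepatocyte genes, acinar genes lie below 0, male-biased genes lie near 0, and the star at 0.01 is Mup3 A_52_P232507, which was not above background in spleen.

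The promoters of Mup1 to Mup5 were looked up in a RefSeq promoter table (assembly GRCm38.p6). It holds 3 of these 5, Mup2, Mup3 and Mup4, all on the minus strand. All 3 are shown, whatever the spleen calls of their probes. Mup1 and Mup5, which also had probes called higher in spleen, have no promoter there. The 100 bases before each annotated start are given 5′ to 3′, with the run TATATAA in capitals, for Mup4 at chr4:59960668-59960767, Mup2 at chr4:60139857-60139956 and Mup3 at chr4:62087318-62087417.
Mup4 promoter: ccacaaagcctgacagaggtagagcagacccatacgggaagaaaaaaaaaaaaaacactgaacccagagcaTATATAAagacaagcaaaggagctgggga
Mup2 promoter: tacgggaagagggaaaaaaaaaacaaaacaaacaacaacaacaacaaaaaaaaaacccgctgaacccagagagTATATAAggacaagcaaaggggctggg
Mup3 promoter: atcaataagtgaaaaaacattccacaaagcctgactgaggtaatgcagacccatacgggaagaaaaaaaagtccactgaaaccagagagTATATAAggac

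The run TATATAA, searched on both strands in 300-base windows that reach 250 bases before and 50 after the start, occurred in 3.24% of 32851 windows of the table. It starts 29, 27 and 11 bases before the annotated start in Mup4, Mup2 and Mup3. Upstream of it each promoter holds a run of A, whose longest stretch is 14, 10 and 8 bases. The STAT motif TTCNNNGAA, where N is any base, was in 0 of the 3 windows and in 8.30% of all windows, which says only that these letters are not within them.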

How the data were processed

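RNA of 4 pools (liver and spleen, control and nucleoprotein diet) was measured on 4 two-colour 4 x 44K mouse arrays in dye swap. Scans were read by Feature Extraction (Agilent, version 9.5.3.1 in the submitters' processing notes). Per the file headers, the deposited files hold each spot's mean and background intensity in both channels and a log10 ratio of red to green. The authors' deposited series table holds the linear ratio of red over green, with a minus sign on replicate 1 whose purpose is unknown, and column medians of -0.92, 0.92, -0.96 and 0.96. Its scale and direction were found from the scanner values, and it was not centred.

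From the intensities, background was corrected by normexp (offset 50) and ratios by loess within arrays with limma 3.58.1 in R 4.3.3. Control spots had no weight, and 189 to 354 outlier gene spots per array were left out. Ratios were turned to nucleoprotein over control. Channel levels came from Aquantile scaling. Only the background and loess steps were run on simulated data. The known ratios there were placed in spots brighter than the dim spleen Mup spots, so the simulation does not cover these. Probes were named by RefSeq accession (22944), by symbol or synonym (9772), or kept the name in the file (8458), giving 27670 genes, and a gene in a list stands for its brightest probe.

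Members and lists were chosen with earlier results of these data known. Every Mup probe is named, and so are the 10 genes nearest in level to the brightest Mup1 probe. Per list, the 2 brightest measurable members and up to 6 called ones could be named, and not all of these were. The exceptions, picked after their values were seen, are the regulators Ghr, Stat5a, Stat5b and Hnf4a, and Lcn2 in liver. In spleen they are Ttr, Tdo2, Cyp3a11, Selenbp2 and Serpina1e. No test was run, since the 2 arrays of an organ were taken as 1 pool per diet, a reading that the labels do not settle; the number of arrays limits the precision.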

Additional observations from a re-analysis of the deposited data

How the results depend on the processing

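No paired analysis was possible because no result comes from a test. The Mup calls in liver were 0 higher and 0 lower under every alternative run but one: without replicate 1, 1 probe was lower (range 0 to 1). In spleen 4 to 6 of the 7 were higher and 0 lower in all alternatives, with 6 at an offset of 10 and in the deposited log ratios, and 4 where both channels had to be above background. The liver median of -0.15 was 0.29 with median centring and between -0.44 and 0.07 with 1 array left out. The spleen median of 1.28 was 1.35 with median centring, 1.75 at an offset of 10, 2.07 both in Feature Extraction's log ratios and in the authors' series table, 1.68 with 1 probe per gene, and 1.26 to 1.30 with 1 array left out. The gap of 6.34 between organs was 5.98 without scaling between arrays, 7.07 at an offset of 10, 8.57 from processed intensities, 7.52 in the control pools alone, 5.81 in the nucleoprotein pools alone, and 6.55 to 6.58 with a replicate left out. Over all genes, 2 were higher and 52 lower in liver, against 0 and 32 with median centring and 28 and 106 in the deposited log ratios, and 30 to 196 higher and 96 to 258 lower on 1 array alone. In spleen 39 were higher and 41 lower, against 30 and 10 with median centring, 66 higher at an offset of 10, 102 and 81 in the deposited log ratios, and 52 to 58 higher and 57 to 88 lower on 1 array alone. The cause of these shifts was not tested. Signal over background limits the spleen values of Mup3 A_52_P232507, of 2 of the Mup1 probes and of Mup5.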
